A study of Mus musculus with 15 samples.

Results

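Hilar mossy cells of the mouse dentate gyrus were followed through 8 marker genes, Calb2, Drd2, Calcrl, Csf2rb2, Ociad2, Ap2s1, Rgs12 and Glipr1. They were taken by symbol from the 32657 features of each raw count table, and 23117 of those features held at least 1 count in some library. The question was whether polysomal RNA captured from Drd3-Cre KI198 cells held mossy cell transcripts besides those of granule cells, and whether this differed between regions or genotypes. TRAP (translating ribosome affinity purification) pulls down ribosomes that carry an EGFP-tagged L10a protein, and the RNA bound to them is the IP. The input is the RNA of the same kind of homogenate before the pull-down.

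Adult mice 8 to 12 weeks old gave 15 libraries in 6 groups. All animals carried Drd3-Cre KI198 and Rosa26-fsTRAP, which switches on EGFP-L10a where Cre has acted, and those with no further allele were the wildtype (WT). Conditional Htr4 knockouts (cKO) carried Htr4-Floxed as well. The ventral dentate gyrus (vDG) gave 3 WT IPs, 3 WT inputs, 2 cKO IPs and 2 cKO inputs, and the dorsal dentate gyrus (dDG) gave 3 WT and 2 cKO inputs with no IP. KI198 is a BAC line in which Cre marks mature granule cells, calretinin-positive hilar mossy cells and some CA1 and CA3 neurons, so the IP is a mixture of cell types. Each library is a pool of mice (3 per IP and 2 per input in the labels, but 1 male and 1 female per replicate in the study's methods), so p-values measure only the spread between pools. The source line of the inputs names whole cortex, whereas their titles and region tags name dentate gyrus, and genes of granule cells, which lie in the dentate gyrus, were abundant in them (a sum of 2443 to 2533 CPM over 7 genes in the WT dDG inputs, against 1830 to 2021 CPM in the WT IPs). The deletion removes 1 exon of Htr4, which a count over the whole gene does not show, since the rest of the transcript is still counted. Htr4 counts nevertheless separated the genotypes: 13.6 to 16 CPM in the WT and 26.7 to 29.8 CPM in the cKO IPs, 13.8 to 18.6 and 27.5 to 29.3 CPM in the vDG inputs, and 24.9 to 33.9 and 47.1 to 51.3 CPM in the dDG inputs, with the cKO higher and no overlap in each.

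Mossy cells are the large glutamatergic neurons of the hilus, whose dendrites receive giant mossy fibre boutons from granule cells. Their axons return along the long axis of the hippocampus to the inner molecular layer, where they contact granule cells and interneurons. In mice, calretinin, the protein of Calb2, marks them mainly in the ventral hilus, and the regulatory regions of Drd2 and Calcrl have been used to drive Cre in them. None of the 8 transcripts is exclusive to mossy cells: calretinin is also made by some interneurons, by Cajal-Retzius cells and by newborn granule cells, and CALCRL is abundant on endothelium.

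Promoter windows were read from RefSeq (GRCm38.p6, 250 bases before to 50 bases after a start) for 6 of the 8 markers, which have 7 windows because Rgs12 has 2. Of these, the Drd2 and Calcrl windows are shown because these genes mark mossy cells in Cre lines, and the Ociad2 window because Ociad2 had the largest regional difference in the WT among the markers with a window. The Ociad2 window lies inside the span that GENCODE gives for the gene (chr5:73322199-73341028, minus strand) and not at its 5′ end. Each is written 5′ to 3′ on the strand of the gene, with capitals where a searched motif matched on either strand. The motifs searched were the GC box, written GGGCGG, the CCAAT box as named, the TATA box, written TATAAA, and the cAMP response element, written TGACGTCA, together with its shorter form TGACG, which every full element contains.
Drd2, chr9:49340153-49340452, plus strand: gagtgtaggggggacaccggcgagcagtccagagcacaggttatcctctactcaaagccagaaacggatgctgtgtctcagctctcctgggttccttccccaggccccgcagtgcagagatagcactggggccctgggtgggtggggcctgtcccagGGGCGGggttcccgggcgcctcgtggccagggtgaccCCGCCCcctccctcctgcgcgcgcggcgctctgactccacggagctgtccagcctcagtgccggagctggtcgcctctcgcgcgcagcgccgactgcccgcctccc
Calcrl, chr2:84425217-84425516, minus strand: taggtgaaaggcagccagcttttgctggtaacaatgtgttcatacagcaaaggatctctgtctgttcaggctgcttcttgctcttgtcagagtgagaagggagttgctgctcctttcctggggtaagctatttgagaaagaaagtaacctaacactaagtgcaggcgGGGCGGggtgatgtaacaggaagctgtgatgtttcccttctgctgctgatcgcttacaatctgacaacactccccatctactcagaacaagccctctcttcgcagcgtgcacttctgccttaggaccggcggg
Ociad2, chr5:73338898-73339197, minus strand: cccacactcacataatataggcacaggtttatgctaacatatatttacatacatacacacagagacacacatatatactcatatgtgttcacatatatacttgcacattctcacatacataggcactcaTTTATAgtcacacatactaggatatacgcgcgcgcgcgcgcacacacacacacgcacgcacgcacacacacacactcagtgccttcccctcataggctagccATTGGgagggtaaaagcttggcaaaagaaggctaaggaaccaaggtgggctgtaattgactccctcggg

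These 3 windows differed in base composition. G and C made up 70.3% of the Drd2 window, 50.7% of the Calcrl window and 46% of the Ociad2 window, beside a median of 52.7% over all 32851 windows. The GC box was found in 5 of the 7 marker windows (Ap2s1, Calcrl, Drd2 and both of Rgs12) and in 35.7% of all windows. The CCAAT box and the TATA box were each found in 1 of 7, both in Ociad2 and both on the opposite strand, beside 37.4% and 13.6% of all windows. The short form of the cAMP response element was found in 1 of 7, the second Rgs12 window, beside 20.8% of all windows, and the full element in 0 of 7, beside 1.79%.

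Library totals ran from 19039295 to 30451430 reads counted on genes, so that 3 counts, taken here as the floor, were worth 0.0986 to 0.149 CPM (the usual per-library scaling of counts, here with TMM factors). Summed over the 7 granule cell genes fixed for this check, CPM was 1830 to 2021 in the WT IPs and 1550 to 1761 in the WT vDG inputs. The 8 interneuron genes summed to 167 to 194 and 448 to 513 CPM in the same groups, and the 4 astrocyte genes to 49.0 to 94.4 and 350 to 442 CPM. In the cKO, the interneuron genes summed to 115 to 131 CPM in the IPs and 380 to 386 CPM in the inputs. Transcripts of both lists were lowered in the IP and still present there.

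All 8 markers had at least 1 count in every library, and 7 of them, all but Glipr1, were above the floor of 3 counts in all 15. Levels compared between genes are given per kilobase of exon. In the WT IPs the order was Ociad2 with 50.8 ± 5.21 CPM per kb (SD, n = 3), Calb2 with 38.9 ± 8.29, Ap2s1 with 22.6 ± 6.22, then Rgs12 at 1.66, Drd2 at 0.968, Calcrl at 0.752, Csf2rb2 at 0.298 and Glipr1 at 0.0518. The libraries overlapped between Ociad2 and Calb2, between Drd2 and Calcrl, and between Calcrl and Csf2rb2, and not between the other neighbours. By mean CPM, Calb2 stood at percentile 85.8 of the features with a count in the WT IPs and at 47.9 in the WT dDG inputs, whereas Ociad2 stood at 92.8 and 82.2. Calb2 and Ociad2 together made up 76.6% to 81.4% of the summed CPM of the 8 markers in the 10 vDG libraries and 46.6% to 60.6% in the 5 dDG libraries, where Calb2 gave 1.30 to 2.98 CPM and Ociad2 38.5 to 54.8 CPM. A sum over the list is mostly these 2 genes in the vDG.

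**Figure D1:**
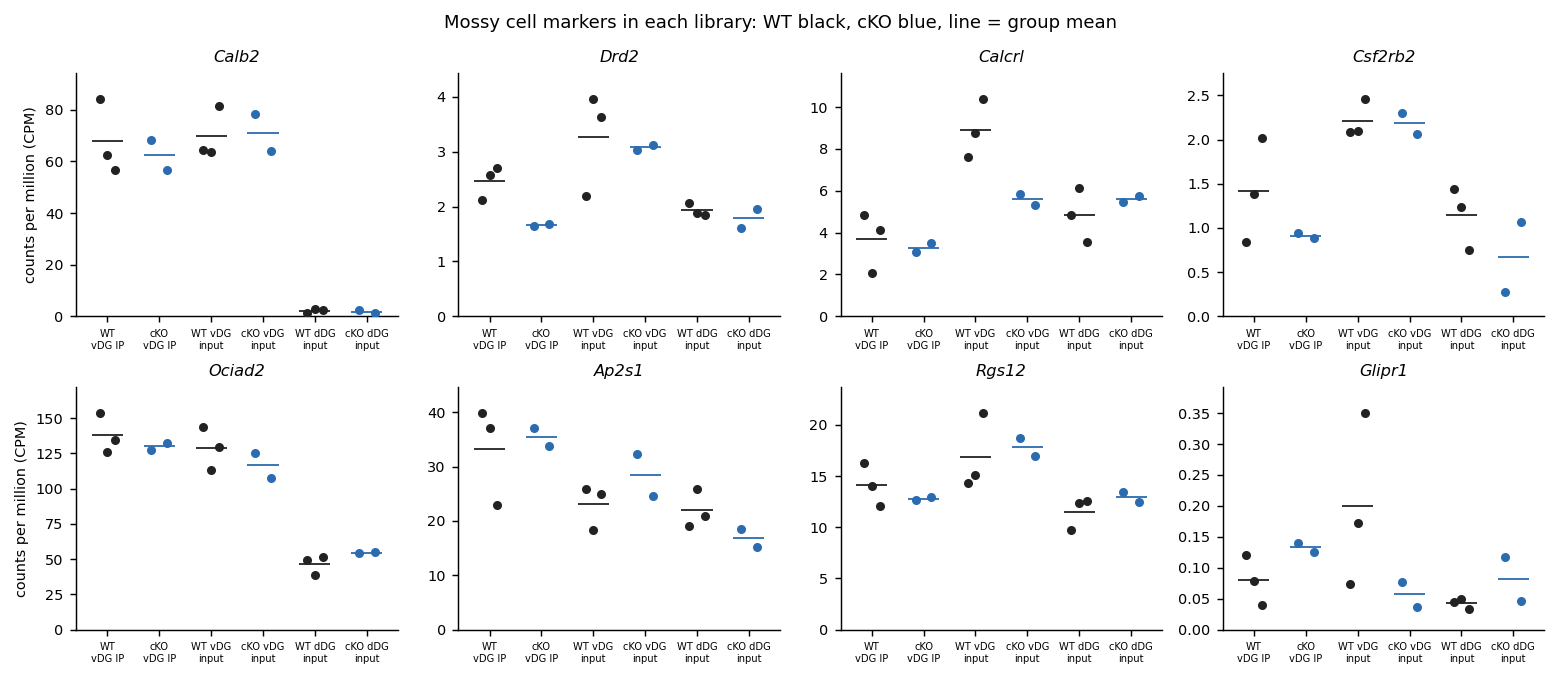
CPM of each mossy cell marker in every library (points) with the group mean (line), WT in black and cKO in blue, on linear axes that start at 0. Calb2 lies between 56.6 and 84.1 CPM in the 10 vDG libraries and between 1.30 and 2.98 CPM in the 5 dDG libraries, and Glipr1 stays at or below 0.351 CPM.

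Calb2 (calretinin, an EF-hand calcium buffer, chr8:110137502-110168210, minus strand, mm10) was present in the IP at CPM values that overlapped those of the input. It gave 84.1, 62.4 and 56.6 CPM in the WT IPs and 64.5, 63.8 and 81.4 CPM in the WT vDG inputs. In the cKO it gave 68.2 and 56.8 CPM in the IPs and 78.2 and 64.0 CPM in the inputs. IP and input libraries overlapped in both genotypes, and these values rest on 1350 to 2099 counts per IP library. IP over input was −0.10 ± 0.16 (log2 fold change ± SE, edgeR FDR 0.692) in the WT and −0.21 ± 0.14 (edgeR FDR 0.271) in the cKO. The direction of the WT value was not stable, since it ran from −0.29 to 0.04 when libraries were left out in turn.

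Of the receptors among the markers, Calcrl was lower in the WT IP than in the input past the threshold. Calcrl, the calcitonin receptor-like receptor (chr2:84330626-84425411, minus strand), gave 4.85, 2.06 and 4.11 CPM in the WT IPs and 7.64, 8.77 and 10.4 CPM in the WT vDG inputs. Every WT IP was below every WT input, and the log2 fold change was −1.34 ± 0.27 (2.53-fold lower in the IP, edgeR FDR 0.00227), with FDR at most 0.0165 when 1 library was left out. In the cKO the IPs gave 3.05 and 3.49 CPM and the inputs 5.84 and 5.34 CPM, also without overlap. That difference of −0.80 ± 0.29 had an edgeR FDR of 0.0553 and did not pass. Of the endothelial genes, from cells that also make CALCRL, 0 of the 4 tested were called by edgeR in either genotype (0 in the WT and 1 in the cKO at an unadjusted p under 0.05, 0 in DESeq2). Ly6c1 was called depleted in the WT without WT IP replicate 1, and Flt1 in the cKO, as enriched, without cKO IP replicate 2, with no filter (1.22, edgeR FDR 0.0211) and with the replicate block (edgeR FDR 0.0205). In all libraries the 5 genes summed to 2.34 to 11.8 CPM in the WT IPs and 3.27 to 4.92 CPM in the WT vDG inputs. Their share in the Calcrl difference was not tested.

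Drd2, the Gi-coupled dopamine receptor (chr9:49340627-49408177, plus strand), gave 2.12, 2.58 and 2.70 CPM in the WT IPs and 2.20, 3.95 and 3.63 CPM in the WT vDG inputs, which overlap. The cKO IPs, at 1.64 and 1.68 CPM, were below the cKO inputs, at 3.03 and 3.13 CPM. Neither difference passed: −0.46 ± 0.28 in the WT (edgeR FDR 0.260) and −0.92 ± 0.37 in the cKO (edgeR FDR 0.0885). Csf2rb2, the beta subunit of the mouse interleukin-3 receptor (chr15:78282507-78305721, minus strand), gave 0.841, 1.39 and 2.01 CPM in the WT IPs and 2.09, 2.10 and 2.46 CPM in the WT vDG inputs. Its cKO IPs gave 0.938 and 0.883 CPM and the cKO inputs 2.30 and 2.06 CPM. IP and input did not overlap in either genotype, but the differences of −0.71 ± 0.35 (edgeR FDR 0.160) and −1.28 ± 0.47 (edgeR FDR 0.0621) did not pass. Of the distinct 75-base stretches of Csf2rb2 exons, 10.6% also occur in its close copy Csf2rb. Reads without a unique alignment were not counted on genes, so reads from these stretches may be missing from its count. Microglial genes, of the cells in which this receptor family is best known, summed over 5 genes to 2.78 to 4.68 CPM in the WT IPs and 21.1 to 34.4 CPM in the WT vDG inputs, and their part in the Csf2rb2 values was not tested.

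The remaining markers lay on both sides of 0. Ociad2 (a small OCIA domain protein of mitochondrial and endosomal membranes, chr5:73322199-73341028, minus strand) gave 154, 126 and 135 CPM in the WT IPs and 144, 113 and 129 CPM in the WT vDG inputs, with a difference of 0.04 ± 0.13 (edgeR FDR 0.855). Its cKO difference was 0.13 ± 0.11 (edgeR FDR 0.403), and both signs turned when libraries were scaled by their total alone. Ap2s1, the sigma subunit of the AP-2 clathrin adaptor (chr7:16738410-16749294, plus strand), gave 39.9, 37.1 and 22.8 CPM in the WT IPs and 26.0, 18.3 and 24.9 CPM in the WT vDG inputs. The third WT IP lay inside the range of the inputs and the others above it. The difference of 0.48 ± 0.21 had an edgeR FDR of 0.115, and without WT IP replicate 3 it was 0.71 with an FDR of 0.00356, which is past the threshold. Rgs12, which speeds GTP hydrolysis on Gi and Go proteins (chr5:34949445-35039644, plus strand), differed by −0.31 ± 0.19 in the WT (edgeR FDR 0.249) and −0.51 ± 0.17 in the cKO (edgeR FDR 0.0393). The cKO difference passed the FDR but not the fold limit for depletion.

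Counted over the list, 0 of the 7 markers tested were enriched in the WT IP and 1, Calcrl, was depleted, and the eighth, Glipr1, did not pass the filter on low counts. Enriched means at least 25% above the input, depleted means under 0.5 of it, each with an FDR under 0.05. Over the 15011 genes tested in that comparison, 7.72% were enriched and 11.4% depleted. DESeq2 also called 1 of the 7. Ap2s1 was called enriched as well with no filter on low counts (0.50, edgeR FDR 0.0219) and in the fit over all groups (0.53, edgeR FDR 0.0374). In the cKO 0 of 7 were enriched and 0 depleted, against 11.4% and 10.7% of 15126 genes, with 4 of the 7 at an unadjusted p under 0.05 and 0 called by DESeq2. The median log2 fold change of the 7 markers was −0.31 in the WT and −0.51 in the cKO, beside 0.00 and −0.03 over all genes tested. Scaling by the library total alone moved the median of all genes to −0.13 and −0.20, and under that scaling 2 of the 7, Drd2 and Csf2rb2, were called depleted in the cKO. With at least 10 counts required in every library, 1 was called there, Csf2rb2.

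The median of the markers lay between that of the granule cell genes and those of interneurons and glia. All 7 granule cell genes had a fold change above 0 in both genotypes. Of them 2 of 7 were called enriched in the WT and 5 of 7 in the cKO, and their medians were 0.28 and 0.59. The WT count was 1 under library totals alone, 3 in DESeq2 and with no filter, and 4 in the fit over all groups. Calb1 was called in the WT without WT IP replicate 3 (FDR 0.0135), and the WT call for Dsp was lost without WT vDG input replicate 3 or WT IP replicate 2. In the cKO the calls for C1ql3 (without either input or IP replicate 1) and Tdo2 (without input replicate 1) depended on single libraries. Interneuron genes were depleted in 7 of 8 (WT) and 6 of 8 (cKO), with medians of −2.80 and −2.82. All 4 astrocyte genes were depleted in both genotypes (Aldh1l1 in the cKO not in DESeq2, nor without cKO vDG input replicate 2 or cKO IP replicate 1), as were 3 of 4 oligodendrocyte genes in each, and all 5 microglial genes reported here in both. The calls for C1qa, Cx3cr1 and Mog in the cKO were lost without cKO vDG input replicate 1. CA3 pyramidal genes gave 0 of 5 (WT) and 1 of 5 (cKO) enriched, the latter being Cpne4, which lost its call without cKO IP replicate 2 (FDR 0.0649), in the fit over all groups and under library totals alone. Without cKO IP replicate 2, Coch was called in its place. In the WT, Cpne4 was called with no filter and in the fit over all groups. Of the CA1 pyramidal genes, DESeq2 called 0 of 3 tested enriched and 1 depleted in the WT (median 0.16). In the cKO it called 0 of 4 enriched and 2 depleted (median −0.91), and Wfs1 was called enriched there with the replicate block (0.35, edgeR FDR 0.0370). Of the cell types that also make calretinin, Cajal-Retzius genes were depleted in 1 of 2 tested in both genotypes (Trp73, a call lost in the WT when any library but IP replicate 2 was left out and in the cKO without either input). Genes of progenitors and immature neurons were depleted in 1 of 4 tested in both (Nr2e1), and Dcx was called too in the WT without vDG input replicate 1 or IP replicate 3. Less RNA from a cell type in the IP and less capture per cell cannot be told apart in these pools.

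**Figure D2:**
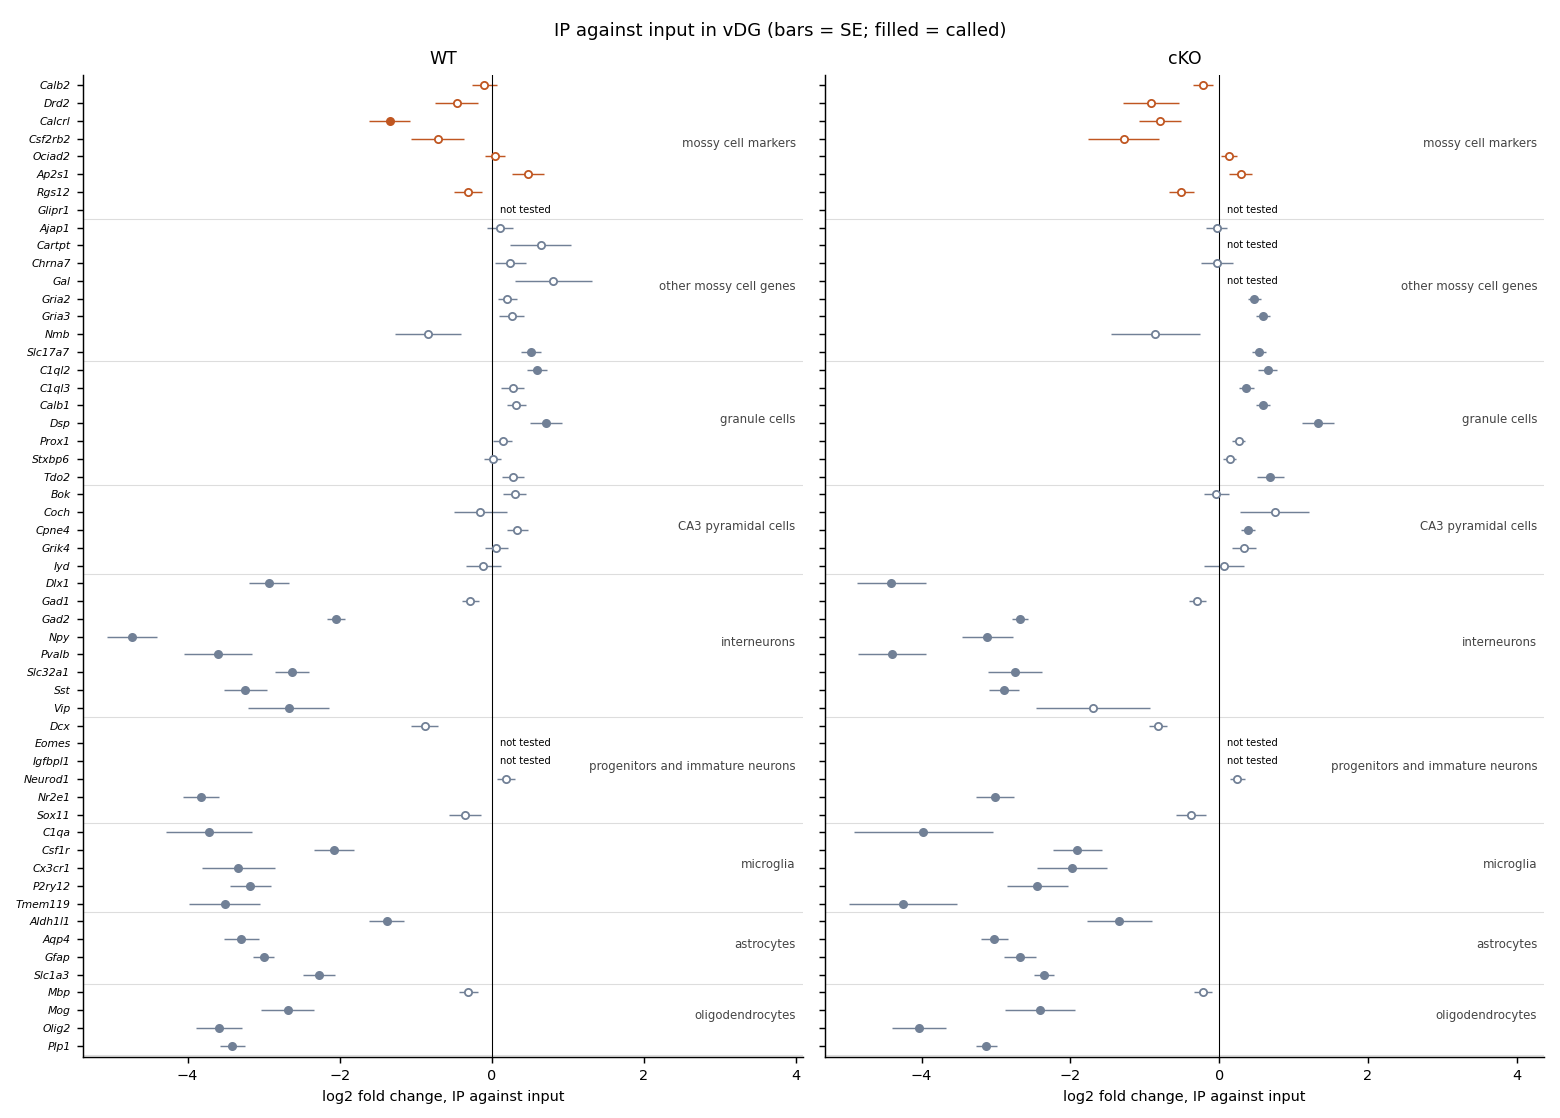
Log2 fold change of IP against input in the vDG (horizontal axis) for the mossy cell markers (orange) and 8 other gene lists (grey), WT left and cKO right. Points are edgeR estimates, bars are SE and filled points passed the call. Among the markers, Calcrl in the WT is the single filled point, at −1.34, whereas most interneuron, microglial, astrocyte and oligodendrocyte genes are filled and far to the left.

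A list of 8 other genes known from mossy cells was set beside the markers: the glutamate transporter Slc17a7, the AMPA receptor subunits Gria2 and Gria3, the nicotinic receptor Chrna7, the adhesion gene Ajap1 and the peptide genes Cartpt, Gal and Nmb. In the WT IP 1 of 8 was enriched, Slc17a7 (0.51 ± 0.13, edgeR FDR 0.0105, and 0.0596 without WT vDG input replicate 1), and 7 of 8 were above 0. In the cKO IP 3 of the 6 tested were enriched, Gria2 (0.47, not called under library totals alone), Gria3 (0.59) and Slc17a7 (0.54). Cartpt and Gal were not tested there. Cartpt held 0 and 4 counts in the cKO IPs and 20 and 9 in the inputs, and Gal 3 and 3 against 6 and 4. In the fit over all groups, 3 of 8 were enriched and 1 depleted in the cKO, with a median of 0.018. Slc17a7, Gria2 and Gria3 are expressed by granule cells and pyramidal cells too.

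The clearest difference in the list was between regions, and it was largest for Calb2. Calb2 gave 1.35, 2.98 and 2.27 CPM in the WT dDG inputs and 2.4 and 1.30 CPM in the cKO dDG inputs, from 28 to 69 counts per library. All 10 vDG libraries were far above all 5 dDG libraries, and the lowest vDG level was 19 times the highest dDG level. Between inputs the difference was 5.01 ± 0.21 in the WT (32.2-fold, edgeR FDR 1.06e-10) and 5.22 ± 0.20 in the cKO (37.3-fold, edgeR FDR 8.79e-13). When 1 library was left out it ran from 4.76 to 5.25 in the WT and from 4.88 to 5.74 in the cKO.

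Ociad2 came next in size in the WT, and after Csf2rb2 in the cKO. It gave 49.0, 38.5 and 51.5 CPM in the WT dDG inputs and 54.2 and 54.8 CPM in the cKO dDG inputs, all below the 107 to 154 CPM of the vDG libraries. The difference was 1.49 ± 0.14 in the WT (2.81-fold, edgeR FDR 8.57e-07) and 1.08 ± 0.12 in the cKO (2.12-fold, edgeR FDR 1.81e-06). Its relative Ociad1, the other OCIA domain gene, differed by 0.18 ± 0.10 (edgeR FDR 0.298) and 0.06 ± 0.11 (edgeR FDR 0.735).

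Calcrl was higher in the vDG in the WT and level between regions in the cKO. The WT dDG inputs gave 4.85, 6.11 and 3.55 CPM, all below the WT vDG inputs, and the difference was 0.91 ± 0.21 (1.88-fold, edgeR FDR 0.00702). The cKO dDG inputs gave 5.48 and 5.73 CPM, inside the range of the cKO vDG inputs at 5.84 and 5.34 CPM, and the difference was −0.01 ± 0.22 (edgeR FDR 0.975). The change of the regional difference with genotype was itself tested and did not pass (−0.93 ± 0.31, edgeR FDR 0.237, unadjusted p of 0.00802). Endothelial genes gave 0 of 5 called between regions in the WT (1 at an unadjusted p under 0.05, 0 in DESeq2), with a median of −0.86. They summed to 2.66 to 14.0 CPM in the WT dDG inputs and 3.27 to 4.92 CPM in the WT vDG inputs. Without WT dDG input replicate 3, Flt1 (−1.21), Pecam1 (−1.76) and Tek (−1.86) were called lower in the vDG. The part of these genes in the regional Calcrl difference was not tested.

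The estimates for Csf2rb2, Drd2 and Rgs12 were above 0 between regions, and none of these genes passed in both genotypes. Csf2rb2 gave 1.44, 1.24 and 0.756 CPM in the WT dDG inputs and 0.276 and 1.07 CPM in the cKO dDG inputs. It passed in the cKO (1.71 ± 0.50, 3.28-fold, edgeR FDR 0.0205) and not in the WT (0.98 ± 0.35, edgeR FDR 0.0732, and 0.0470 without WT dDG input replicate 1), and the cKO call rested on cKO dDG replicate 1, without which it was 1.0 with an FDR of 0.227. Rgs12 ran from 14.3 to 21.2 CPM in the WT vDG inputs and from 9.69 to 12.5 CPM in the WT dDG inputs. It passed in the WT (0.56 ± 0.17, 1.48-fold, edgeR FDR 0.0358) and not in the cKO (0.45 ± 0.16, edgeR FDR 0.0579, and 0.0462 without cKO vDG input replicate 2). The WT call was lost when WT vDG input replicate 2 (0.64, FDR 0.0503) or 3 (0.37, FDR 0.217), or WT dDG input replicate 1 (0.45, FDR 0.131) or 2 (0.61, FDR 0.0686), was left out. Drd2, at 2.06, 1.89 and 1.84 CPM in the WT dDG inputs and 1.61 and 1.96 CPM in the cKO dDG inputs, differed by 0.77 ± 0.29 (edgeR FDR 0.0876, and 0.0363 without WT vDG input replicate 1) and 0.78 ± 0.32 (edgeR FDR 0.0977).

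Ap2s1 was called between regions in the cKO and not in the WT. The WT dDG inputs, at 19, 25.9 and 21.0 CPM, overlapped the WT vDG inputs (0.08 ± 0.16, edgeR FDR 0.796). The cKO dDG inputs, at 18.6 and 15.2 CPM, were below the cKO vDG inputs at 32.3 and 24.7 CPM (0.74 ± 0.16, 1.67-fold, edgeR FDR 0.00248). Fitted over all groups together, the cKO difference had an FDR of 0.0574. The test of the change with genotype gave 0.66 ± 0.25 (edgeR FDR 0.303, unadjusted p of 0.0181).

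Over the list, 4 of the 7 markers tested were called higher in the vDG in each genotype (Calb2 and Ociad2 in both, Calcrl and Rgs12 in the WT, Csf2rb2 and Ap2s1 in the cKO) and 0 were lower. Of all genes tested, 9.26% were higher and 6.09% lower in the WT, and 8.56% and 8.47% in the cKO. In the cKO the count fell to 2 of 7 when all groups were fitted together and to 3 of 6 with at least 10 counts in every library, where Csf2rb2 was not tested, and it rose to 5 under library totals alone, with Rgs12. In the WT it rose to 5 with at least 10 counts, with Csf2rb2 (edgeR FDR 0.0492). The median difference of the 7 markers was 0.91 in the WT and 0.78 in the cKO, beside −0.01 and 0.01 over all genes. Glipr1 (GLI pathogenesis-related 1, a secretory CAP family protein, chr10:111985448-112002631, minus strand) held 1 to 9 counts per library and exceeded 3 counts in WT vDG input replicates 2 and 3 alone, with 5 and 9. Its exons overlap those of Krr1 on the other strand by 352 bases, and the library kit does not keep strand.

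Other genes that differed between regions are given beside the markers, and their part in the marker differences was not tested. Of 4 genes used in the study to check dissections, Trhr (a ventral dentate gyrus marker) and Tyro3 (a CA field marker) were called higher in the vDG in both genotypes, and Dsp (a dentate gyrus marker) and Lct (a dorsal dentate gyrus marker) lower. A CA field marker was thus higher and a dentate gyrus marker lower in the vDG inputs than in the dDG inputs. Tyro3 differed by 1.38 ± 0.22 in the WT and 1.24 ± 0.28 in the cKO, Dsp by −1.58 ± 0.19 and −2.23 ± 0.17, and Trhr by 5.75 ± 0.27 and 6.41 ± 0.36. Interneuron genes were higher in 3 of 8 in each genotype (in the cKO 2 in DESeq2 and 1 in the fit over all groups, and Slc32a1 lost its call without cKO dDG input replicate 1 or cKO vDG input replicate 1), with a median of 0.44 in both and the largest value at Sst (1.86 in the WT, 1.46 in the cKO). CA3 genes were higher in 3 of 5 (WT) and 1 of 5 (cKO), where the calls for Bok in the WT (WT dDG input replicate 1 or 2, WT vDG input replicate 1 or 3) and Grik4 in the cKO (cKO dDG input replicate 2, cKO vDG input replicate 2) were lost without single libraries, and that for Grik4 also in the fit over all groups. Coch was called higher too in the WT with no filter, with the replicate block and without WT dDG input replicate 2 or WT vDG input replicate 1, and in the cKO without cKO dDG input replicate 1. The 5 genes summed to 278 to 337 CPM in the WT vDG inputs and 165 to 228 CPM in the WT dDG inputs. The 4 CA1 pyramidal genes went both ways. In DESeq2, 1 was called higher and 2 lower in the WT (median −0.68), and 2 higher and 1 lower in the cKO (median −0.02). In the fit over all groups, 1 was higher and 0 lower in the cKO. Cajal-Retzius genes gave 0 called of the 2 tested (WT) and of the 3 tested (cKO), with 1 and 0 of them at an unadjusted p under 0.05. Reln was called higher in the WT without WT vDG input replicate 1 (FDR 0.0241). Granule cell genes were lower in 4 of 7 (WT) and 6 of 7 (cKO), where C1ql3 lost its call in the cKO whichever library was left out and C1ql2 without cKO vDG input replicate 2. Genes of progenitors and immature neurons gave 1 of 5 tested higher in the WT (Nr2e1, lost without WT vDG input replicate 2) and 0 lower, although Sox11 was called lower in DESeq2 (−0.45, FDR 0.0389), with no filter, with the replicate block and without WT dDG input replicate 1 or WT vDG input replicate 2, and Igfbpl1 with no filter, with the block and without WT dDG input replicate 1. In the cKO 0 of 6 were higher (Nr2e1 was called higher under library totals alone, with the block and without cKO vDG input replicate 2) and 2 of 6 lower in the cKO (Dcx and Igfbpl1, both lost in the fit over all groups, and Igfbpl1 whichever library was left out).

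**Figure D3:**
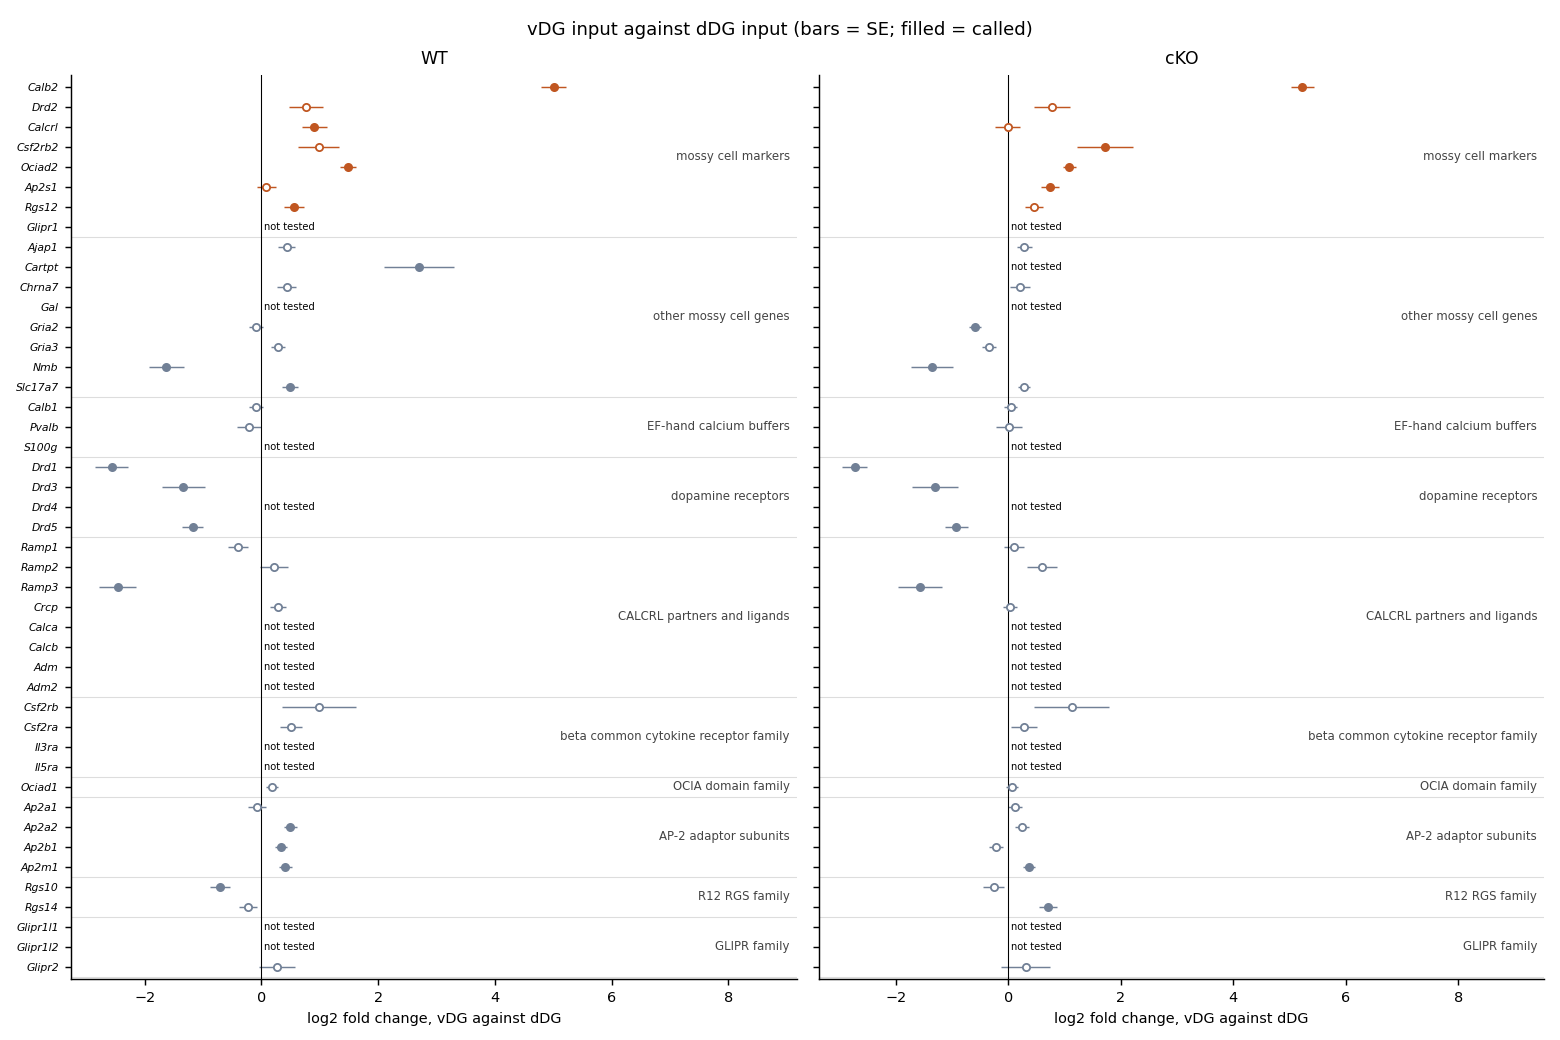
Log2 fold change of vDG against dDG input (horizontal axis) for the mossy cell markers (orange), the other mossy cell genes and the relatives and partners of the markers (grey), WT left and cKO right. Points are edgeR estimates, bars are SE and filled points passed an FDR of 0.05. Calb2 stands alone near 5, Ociad2 lies between 1 and 1.5, and the dopamine receptors Drd1, Drd3 and Drd5 lie to the left of 0 in both genotypes.

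Of the other mossy cell genes, the peptides went opposite ways. Cartpt, the CART prepropeptide, gave 22, 28 and 32 counts in the WT vDG inputs and 1, 6 and 4 counts in the WT dDG inputs, without overlap, a difference of 2.69 ± 0.60 (edgeR FDR 0.00486). It was not tested in the cKO, where the counts were 20 and 9 (vDG) and 3 and 4 (dDG). Nmb, the neuromedin B precursor, ran from 0.860 to 1.72 CPM in the WT vDG inputs and from 3.32 to 4.67 CPM in the WT dDG inputs, a difference of −1.63 ± 0.31 (edgeR FDR 0.00132), and was lower in the cKO vDG as well (−1.36 ± 0.37, edgeR FDR 0.0139, a call lost without cKO dDG replicate 2 or cKO vDG input replicate 1). Altogether 2 of 7 tested were higher and 1 lower in the WT, and 0 of 6 higher and 2 lower in the cKO, where Gria2 was the second (−0.60 ± 0.11) and Gria3 was called as well in DESeq2 (−0.35, FDR 0.0498), with RLE size factors, with no filter, with at least 10 counts, with the replicate block and without cKO dDG input replicate 1. Ajap1 was called higher in the WT in DESeq2 (0.42, FDR 0.0426), under library totals alone, with no filter, with at least 10 counts, with the block and without WT dDG or vDG input replicate 1. Slc17a7 was called higher in the cKO under library totals alone (0.35, FDR 0.0423) and with the block. Slc17a7 was the second higher gene in the WT (0.48 ± 0.14, edgeR FDR 0.0236), and its call was lost without WT vDG input replicate 2 or 3 or WT dDG input replicate 2.

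In the main edgeR fits, no marker was called between genotypes in any of the 3 fractions. Calcrl in the vDG input was called lower in DESeq2 and in other alternatives, given below. In the vDG IPs, 0 of 7 were higher or lower at the FDR of 0.1 set for this comparison, where 0.0699% of 14300 genes were higher and 0.35% lower in the cKO. In edgeR 0 of 7 had an unadjusted p under 0.05, and DESeq2 called 0. Calb2 differed by −0.08 ± 0.18, Ociad2 by −0.05 ± 0.14, Calcrl by −0.13 ± 0.36, Ap2s1 by 0.12 ± 0.21 and Rgs12 by −0.11 ± 0.20. The lowest FDR of the list in edgeR was that of Drd2 (0.606), with a difference of −0.53 ± 0.37. The SE was largest for Calcrl, Drd2 and Csf2rb2 (0.36 to 0.53), so differences of that size were not detectable in them. Of the other lists, 1 of 6 interneuron genes tested, Gad2, was called lower in the cKO IPs, a call lost without WT IP replicate 2 or either cKO IP. The summed interneuron level did not overlap between genotypes in the IP (115 to 131 CPM in the cKO, 167 to 194 CPM in the WT). Of the astrocyte genes 0 of 4 were called there in edgeR, with 1 at an unadjusted p under 0.05, and their sums overlapped (42.1 to 53.8 and 49.0 to 94.4 CPM), but Slc1a3 was called lower in DESeq2 (−0.78, FDR 0.0568), in the fit over all groups, with no filter and without WT IP replicate 1 (−1.02, FDR 0.0199).

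In the vDG inputs 0 of 7 passed, against 0.108% of 15786 genes higher and 2.33% lower. Calcrl was below all WT vDG inputs in both cKO vDG inputs (5.84 and 5.34 against 7.64 to 10.4 CPM), a difference of −0.69 ± 0.21 with an edgeR FDR of 0.0754 and an unadjusted p of 0.00278, the single 1 of 7 under 0.05. Its call depended on the method: the FDR was 0.0470 in DESeq2, 0.049 with no filter on low counts, and 0.0302 without WT vDG input replicate 1. Of the astrocyte genes 2 of 4, Aqp4 and Slc1a3, were called lower in the same inputs (3 in DESeq2, with no filter and with the replicate block, and 0 in the fit over all groups). Both calls were lost without either cKO vDG input, and that for Aqp4 also without WT vDG input replicate 2 or 3. The sum of the 4 genes was 255 to 291 CPM in the cKO and 350 to 442 CPM in the WT. Dsp, a granule cell gene that also served as the dentate gyrus marker of the dissections, was called lower in the cKO vDG inputs (31.5 to 44.1 CPM, against 44.5 to 87.1 CPM in the WT, a difference of −0.94 ± 0.21, edgeR FDR 0.0156). That call was lost in DESeq2, in the fit over all groups, and without either cKO vDG input or WT vDG input replicate 2. The summed level of all 7 granule cell genes overlapped, at 1658 to 1696 CPM in the cKO and 1550 to 1761 CPM in the WT. Interneuron genes summed to 380 to 386 CPM in the cKO and 448 to 513 CPM in the WT, and microglial genes to 13.8 to 19.7 and 21.1 to 34.4 CPM, neither with overlap. Of these, 0 of 8 and 0 of 5 were called in edgeR (5 and 2 at an unadjusted p under 0.05), with 0 and 1, P2ry12, in DESeq2. P2ry12 was also called lower with no filter and with the replicate block (−0.90, FDR 0.0340), and Sst with no filter, with the block (−0.69, FDR 0.0253) and without WT vDG input replicate 1 (−0.87, FDR 0.00106). Endothelial genes summed to 2.83 to 4.72 and 3.27 to 4.92 CPM. The part of these genes in the Calcrl difference was not tested.

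In the dDG inputs 0 of 7 passed, where 0.0065% of 15383 genes were higher and 0.026% lower, and DESeq2 also called 0. Ap2s1 differed by −0.38 ± 0.16 (edgeR FDR 0.378) and was the single marker with an unadjusted p under 0.05. Calb2 differed by −0.23 ± 0.40 there, at 1.30 to 2.98 CPM. The change of the IP to input ratio with genotype was called for 0 of 7 markers and 0% of 16093 genes, with 0 of 7 at an unadjusted p under 0.05, and the change of the regional difference for 0 of 7 and 0% of 16306 genes, with 2 of 7 under 0.05 (Calcrl and Ap2s1). DESeq2 called 0 of 7 in both.

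**Figure D4:**
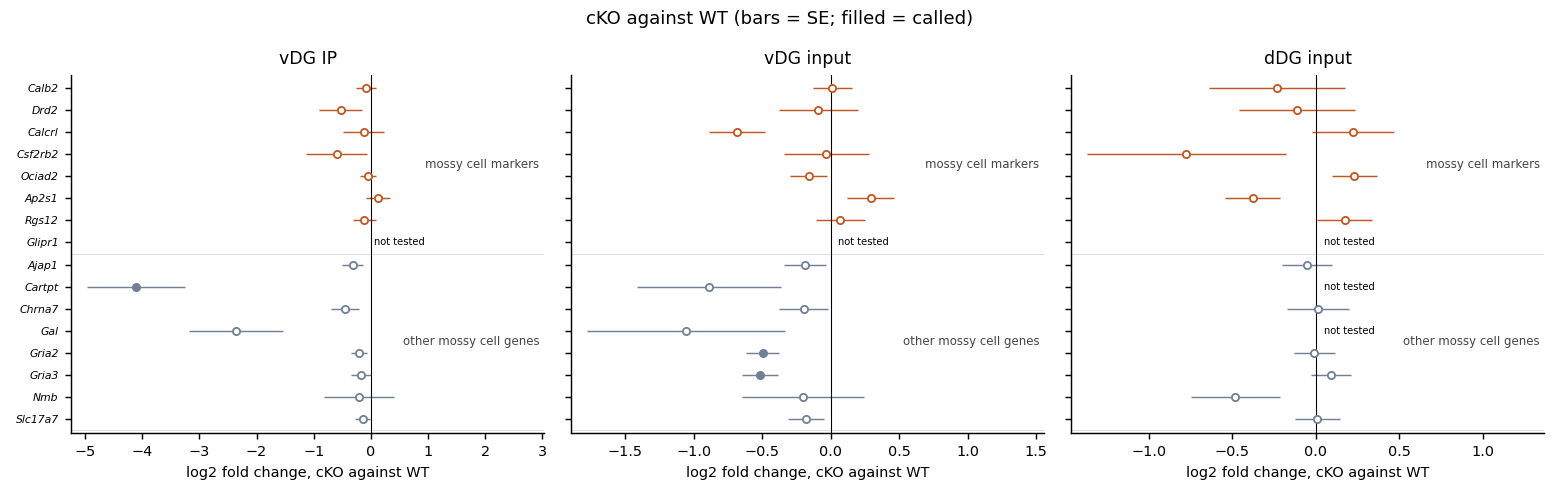
Log2 fold change of cKO against WT (horizontal axis) for the mossy cell markers (orange) and the other mossy cell genes (grey) in the vDG IP, vDG input and dDG input. Points are edgeR estimates, bars are SE and filled points passed the call. No marker is filled. Cartpt in the vDG IP, at −4.12, and Gria2 and Gria3 in the vDG input, at −0.50 and −0.52, are.

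Among the other mossy cell genes, Cartpt was the one called in the IP. The WT IPs held 49, 49 and 25 counts (1.96, 1.94 and 1.01 CPM), and the cKO IPs held 0 and 4 counts, where the floor is 3. Both cKO IPs were below all WT IPs, and the fitted difference was −4.12 ± 0.86 (edgeR FDR 0.0864). Its size depends on the near-empty cKO libraries and is no estimate of a fold. The call was lost without WT IP replicate 2 (FDR 0.221), cKO IP replicate 1 (FDR 0.908) or cKO IP replicate 2 (FDR 0.148), and DESeq2 gave no adjusted p. In the vDG inputs the counts were 22, 28 and 32 in the WT and 20 and 9 in the cKO, a difference of −0.89 ± 0.53 (edgeR FDR 0.450). Gal, the galanin precursor, held 22, 22 and 10 counts in the WT IPs and 3 in each cKO IP, at the floor (−2.36 ± 0.82, edgeR FDR 0.307). Over all genes, the median was −0.0019 in the IP, where 0.35% were called lower and 0.0699% higher. In the vDG input it was 0.011, with 2.33% called lower and 0.108% higher. All 8 genes of this list were below 0 in both fractions, with 1 and 2 of 8 called. Gria2 (−0.50 ± 0.12) and Gria3 (−0.52 ± 0.13) were the 2 in the input, and both lost their calls without either cKO vDG input or WT vDG input replicate 3, and Gria3 also without WT vDG input replicate 2. In the fit over all groups 0 of 8 were called there (Gria2 FDR 0.0787, Gria3 FDR 0.169), and 1 of 8 with library totals alone and with the replicate block. Dsp and the astrocyte, interneuron and microglial sums, given above, were lower in the same cKO vDG inputs, and their part in these values was not tested.

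The relatives and binding partners of the markers were read from lists fixed by role. Of the dopamine receptors besides Drd2, 3 of 4 could be tested between regions, and all 3 were lower in the vDG in both genotypes, opposite in sign to Drd2. Drd1 differed by −2.57 ± 0.29 (edgeR FDR 7.9e-06) and −2.73 ± 0.22 (3.1e-08), Drd5 by −1.18 ± 0.18 (0.00025) and −0.92 ± 0.21 (0.0040), and Drd3, whose promoter drives Cre here, by −1.34 ± 0.37 (0.020) and −1.31 ± 0.41 (0.033). Calls for Drd1 and Drd5 held whichever single library was left out, and those for Drd3 did not (WT dDG input replicate 1 and WT vDG input replicates 2 and 3 in the WT; cKO dDG input replicates 1 and 2 and cKO vDG input replicate 2 in the cKO, where DESeq2 and the fit over all groups did not call it either). In the IP against the input 0 of 3 were called in either genotype, with 0 at an unadjusted p under 0.05 and 0 called by DESeq2, but Drd1 was called depleted in the cKO without cKO IP replicate 2 (−1.93, edgeR FDR 0.0022).

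CALCRL needs a RAMP protein to bind its ligands, CGRP with RAMP1 and adrenomedullin with RAMP2 or RAMP3. Of the 8 partner and ligand genes, 4 were tested. Ramp3 was lower in the vDG (−2.47 ± 0.31 in the WT, edgeR FDR 2.9e-05; −1.58 ± 0.39 in the cKO, edgeR FDR 0.0081, and 0.0921 without cKO dDG replicate 1 and 0.0631 in the fit over all groups), the opposite direction to Calcrl in the WT. Ramp1 differed by −0.40 ± 0.17 (edgeR FDR 0.13, and 0.0136 without WT dDG input replicate 3) and 0.10 ± 0.18 (edgeR FDR 0.76), and Ramp2 by 0.21 ± 0.24 (edgeR FDR 0.63) and 0.60 ± 0.27 (edgeR FDR 0.13). None of the 4 was called in the IP in either genotype. Calca, Calcb, Adm and Adm2, which encode the ligands, were at 0.244 CPM or less in all group means and were not tested.

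The AP-2 subunits other than Ap2s1 were enriched in the IP. All 4 were enriched in both genotypes: Ap2a1 by 0.75 ± 0.14 and 0.75 ± 0.11, Ap2a2 by 0.62 ± 0.12 and 0.61 ± 0.13, Ap2m1 by 0.54 ± 0.11 and 0.72 ± 0.10, and Ap2b1 by 0.51 ± 0.12 and 0.43 ± 0.12. The cKO call for Ap2b1 was lost under scaling by library total alone, without cKO vDG input replicate 1 and without cKO IP replicate 2. Ap2s1, at 0.48 ± 0.21 and 0.29 ± 0.15, had values of the same sign that did not pass, and its difference from the others was not tested. Between regions 3 of 4 were higher in the WT vDG (Ap2a2, Ap2b1 and Ap2m1) and 1 of 4 in the cKO vDG (Ap2m1). Of these, Ap2a2 alone kept its call whichever library was left out, and in the fit over all groups 2 of 4 were called in the WT, without Ap2b1, and 0 of 4 in the cKO. Ap2b1 was lower in the cKO vDG input than in the WT (−0.59 ± 0.13, edgeR FDR 0.013), a call lost without either cKO vDG input. In the IP it was below all WT IPs as well (−0.65 ± 0.15) and did not pass in edgeR (FDR 0.116, where the threshold was 0.1), but it was called lower in DESeq2 (FDR 0.00495), under library totals alone, with no filter, with at least 10 counts, in the fit over all groups and without WT IP replicate 1 (FDR 0.0706). Between regions in the cKO its difference was −0.22 ± 0.12 (edgeR FDR 0.236), and without cKO dDG input replicate 1 it was called lower in the vDG (−0.40, FDR 0.0437), opposite to its WT call.

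The R12 relatives of Rgs12 gave a pair of unlike values. Rgs10 was depleted in the IP (−2.28 ± 0.28 and −2.20 ± 0.29), whereas Rgs14 was enriched in the WT (0.72 ± 0.16, edgeR FDR 0.0044) and did not pass in the cKO (0.35 ± 0.15, edgeR FDR 0.10, 0.0429 without cKO IP replicate 1 and 0.0498 with the replicate block). Calb1, the calbindin gene of granule cells, was enriched in the cKO IP (0.59 ± 0.10) and at 0.32 ± 0.12 in the WT (edgeR FDR 0.067, and 0.0135 without WT IP replicate 3), and Pvalb was depleted in both (−3.61 ± 0.45 and −4.40 ± 0.46). Neither differed between regions past the threshold, unlike Calb2. Csf2rb, the close copy of Csf2rb2, differed between regions by 0.98 ± 0.63 and 1.13 ± 0.67 without passing, and Csf2ra by 0.51 ± 0.19 and 0.27 ± 0.23. Glipr2 was depleted in the IP, with 0 to 3 counts in the WT IPs and 0 in the cKO IPs.

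**Figure D5:**
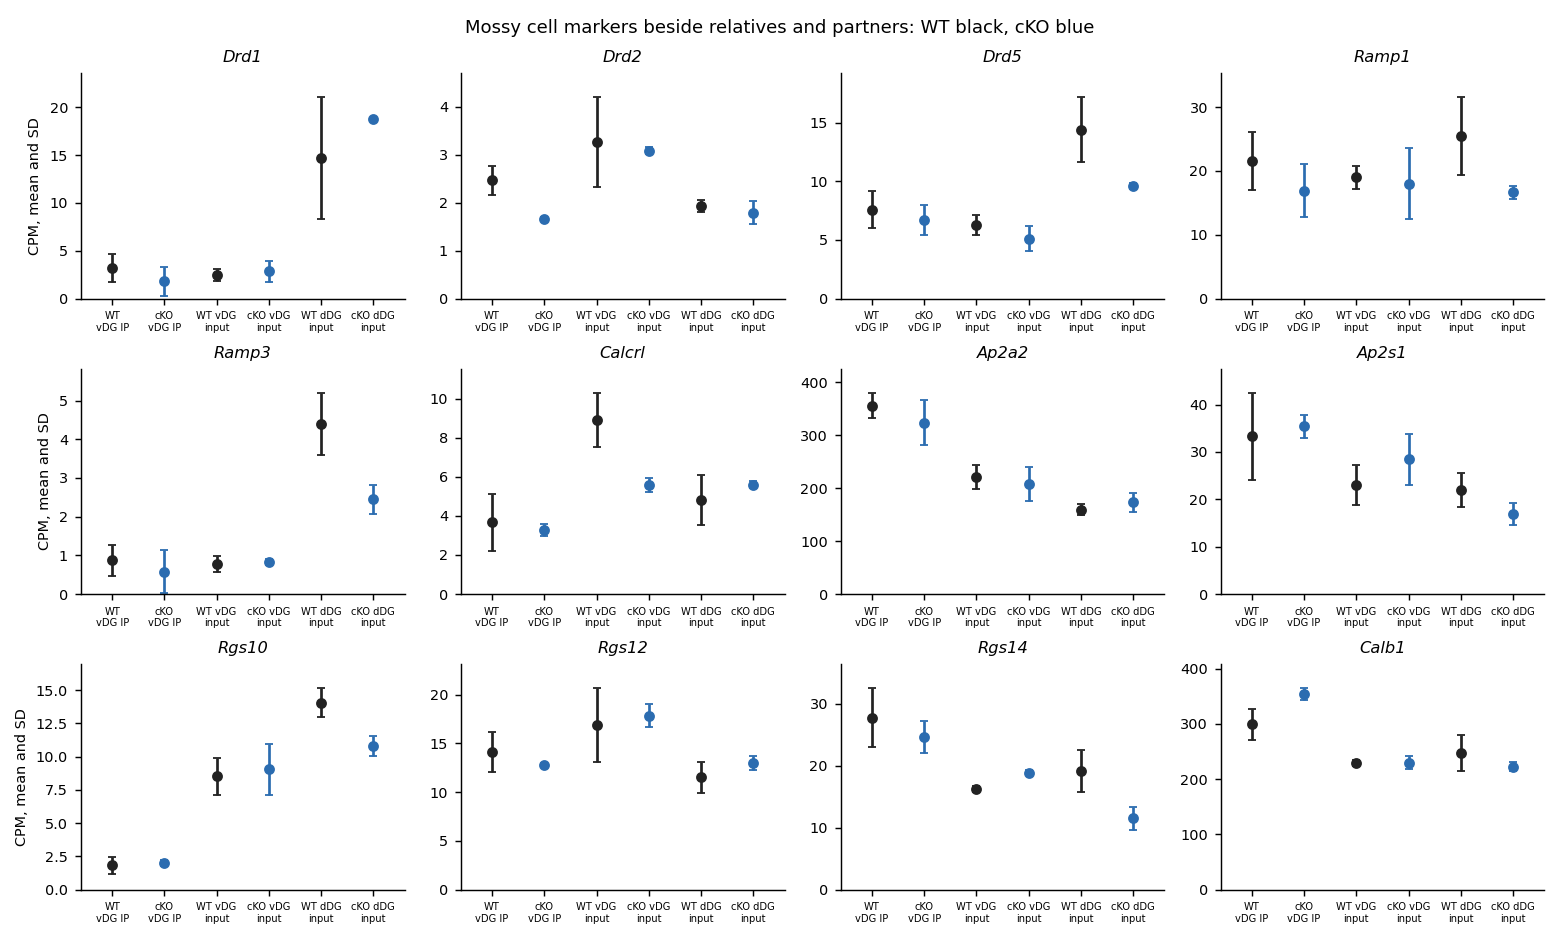
Mean CPM with SD (bars) in the 6 groups for Drd2, Calcrl, Ap2s1 and Rgs12 beside relatives and partners, and for Calb1, WT in black and cKO in blue, linear axes from 0. Drd1 averages 14.7 and 18.8 CPM in the WT and cKO dDG inputs and at most 3.17 CPM in the vDG groups, and Rgs10 averages 1.82 and 2.0 CPM in the WT and cKO IPs against 8.53 and 9.05 CPM in their inputs.

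The genes whose profile was most like each marker across the 15 libraries were found by the root mean square (RMS) difference of centred log2 CPM among genes with a mean of at least 5 CPM. For Calb2, whose own log2 values had an SD of 2.4, they were Cpne7 (0.56), Scml4 (0.63) and Nkd2 (0.64). For Ociad2 (SD 0.67) they were Gsta4 (0.15), Efr3b (0.17) and Ak4 (0.19). Drd2 (SD 0.39) was nearest to Etv5, Abat and G6pc3 at 0.18 to 0.21, Rgs12 (SD 0.27) to Plcl2, Gpr137 and Snn at 0.17, and Ap2s1 (SD 0.41) to Stmn3, Pop5 and Nme1 at 0.12 to 0.14. Calcrl (SD 0.57) was nearest to Aldh6a1, Ankrd34b and Dhrs3 at 0.29 to 0.31, and Csf2rb2 (SD 0.74) to Prr16, Ndst3 and B3glct at 0.43 to 0.45. No marker was among the 3 nearest genes of another (Drd2, Csf2rb2 and Glipr1, below the minimum mean, could not be), and the libraries share groups and pools, so these distances are descriptions.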

How the data were processed

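RNA-seq read counts per gene from 15 libraries were used as deposited by the authors. The authors amplified 15 ng of RNA (NuGEN Ovation V2, which does not keep strand), trimmed reads, aligned them to mm10 with STAR 2.4.2a, removed duplicates with SAMtools 0.1.19-444 and counted reads with HTSeq in union mode. The deposited tables of the authors' own comparisons (fold changes and p-values) were not used. Groups came from the sample titles. Counts were scaled by TMM and tested with the quasi-likelihood F-test of edgeR 4.0.16 (R 4.3.3; filterByExpr; Benjamini-Hochberg FDR over all genes tested) on the compared groups alone, with interaction terms over 4 groups. Thresholds followed the study, with an FDR of 0.1 between genotypes in IPs and 0.05 elsewhere. DESeq2 1.42.0, other scalings and filters, a fit over all groups, a replicate block and leaving out each library were the alternatives. The steps were tested on simulated counts. Positions came from GENCODE (GRCm38). Named were all 8 markers, the lists by role and the 3 nearest genes (mean of at least 5 CPM) of each marker with a mean of at least 1 CPM. The markers and lists were chosen with earlier results of these data known. Where libraries of groups are said not to overlap, the share of all genes that separate likewise was not counted. A marker gene of another cell type is not reported here.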

Additional observations from a re-analysis of the deposited data

How the results depend on the processing

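Of the recomputed marker values, 36 of 385 with a library left out and 9 of 438 under other settings changed sign, all among 21 differences that were not called and measured at most 0.23 on the log2 scale; in the alternatives their lowest FDR was 0.686. Scaling by library total alone turned Ociad2 in IP against input (−0.092 in the WT, −0.035 in the cKO) and Calcrl between regions in the cKO (0.056). Requiring at least 10 counts in every library turned Ociad2 in the WT IP against input (−0.00542), and no filter turned Drd2 in the genotype by region term (−0.0029).

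In the study's methods, input RNA came from part of the supernatant before the pull-down, and both dorsal and ventral tissue was dissected. IP and input, and vDG and dDG, may thus share mice, whereas the main fits treat them as independent. The replicate numbers did not establish which libraries pair. Same-numbered WT IPs and inputs correlated at 0.44, −0.12 and −0.28 in their deviations over 10372 genes. WT vDG and dDG inputs correlated at 0.38, −0.08 and 0.24, and cKO against WT pairs at −0.02 to −0.17. The cKO IPs and inputs correlated at 0.44 and the cKO vDG and dDG inputs at 0.11, where 2 pairs per comparison give a single value. The file names number the cKO dDG inputs differently from the titles used here, so the block may pair these libraries wrongly. With the replicate block, Calcrl (0.051) and Ap2s1 (−0.10) turned in cKO against WT in the IP, and Drd2 (0.032) and Csf2rb2 (0.043) in the vDG input; the number of markers called was 1 in IP against input in the WT, 0 in the cKO, 5 between regions in each genotype (Csf2rb2 joining in the WT and Rgs12 in the cKO) and 0 between genotypes.

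With 1 library left out in turn, IP against input in the WT ran from −0.048 to 0.15 for Ociad2 and from −0.29 to 0.038 for Calb2; between regions Ap2s1 ran from −0.017 to 0.23 in the WT and Calcrl from −0.091 to 0.038 in the cKO. For cKO against WT in the IP the ranges were −0.23 to 0.11 for Calb2, −0.41 to 0.13 for Calcrl, −0.11 to 0.037 for Ociad2, −0.22 to 0.0053 for Rgs12 and −0.10 to 0.28 for Ap2s1. In the vDG input they were −0.13 to 0.14 for Calb2, −0.026 to 0.27 for Rgs12, −0.30 to 0.068 for Drd2 and −0.11 to 0.049 for Csf2rb2, and in the dDG input −0.74 to 0.13 for Calb2 and −0.25 to 0.023 for Drd2. For the genotype by fraction term they were −0.25 to 0.065 for Calb2 and −0.42 to 0.044 for Ap2s1, and for genotype by region −0.20 to 0.20 for Drd2, −0.21 to 0.079 for Rgs12 and −0.13 to 0.73 for Calb2.

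The number of markers called in the WT IP against input was 2 in place of 1 with no filter and in the fit over all groups, Ap2s1 being added as enriched in both, and 1 to 2 with a library left out. In the cKO it was 2 in place of 0 under library totals alone and 1 with at least 10 counts. Between regions it was 2 in place of 4 in the fit over all groups, 5 under library totals alone and 3 of 6 with at least 10 counts in the cKO, and 5 in place of 4 with at least 10 counts in the WT. For cKO against WT in the vDG input it was 1 in place of 0 in DESeq2 and with no filter, and 0 to 1 with a library left out. Over all genes, 10 were higher and 50 lower in the cKO IP, against 76 and 277 in DESeq2, 82 and 297 with no filter, 11 and 104 under library totals alone and 100 and 370 in the fit over all groups. In the vDG input 17 and 368 became 34 and 592, 50 and 610, and 6 and 134 (DESeq2, no filter, all groups). In the dDG input 1 and 4 became 83 and 105, 135 and 243, and 0 and 0, and 62 and 75 with the block. The genotype by region term, with 0 calls, gave 54 and 202 in DESeq2, 120 and 242 with no filter and 3 and 8 with the block, and the genotype by fraction term gave 7 and 5 with no filter. In the WT IP 1159 enriched and 1711 depleted became 755 and 927 with at least 10 counts, and between regions in the cKO 1328 and 1314 became 688 and 672 over all groups. The fit over all groups moved the share of higher calls in the WT IP from 40.4% to 51.4%. Library totals alone moved the share of higher calls from 40.4% to 20.3% in the same comparison, from 51.4% to 27.1% in the cKO IP and, between regions in the cKO, from 50.3% to 65.3%. The causes were not tested. With 2 cKO pools per group and markers such as Csf2rb2 and Drd2 near 1 to 4 CPM, small genotype differences were not detectable.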
